A study of Sus scrofa with 6 samples.

Results

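The interleukin 1 and interleukin 18 genes of the porcine ovarian follicle were followed through 3 stages of follicle growth. The genes IL1A, IL1B, IL1RN, IL18 and IL18BP were chosen on their signals over these stages, and every probe set that the platform annotation assigns to only 1 of them was taken, which gave 6 of the 23999 probe sets that are not controls and 4 of the 6765 genes that have one. IL1A and IL1B had 2 probe sets each and IL18 and IL18BP had 1 each, while no probe set carries the symbol IL1RN alone, so the receptor antagonist was not analysed here. All 6 probe sets passed the filter on dim signals.

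Follicles had been isolated from the ovaries of prepubertal gilts (pigs that have not yet cycled) and sorted by morphology and diameter into primordial, middle and last stages, and their total RNA was hybridised. Each stage had 2 single-channel Affymetrix porcine arrays titled as biological replicates, 6 arrays in all, and the labels name no treatment, strain or genetic change for any stage. Whether the replicates came from separate animals, and how many follicles went into each, is not given in the sources used here, so a p-value here covers only how far these samples scatter. Stage names rest on the sample titles, since a description attached to all 6 samples calls them primordial.

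The whole RNA of a follicle mixes the oocyte, granulosa and theca cells and any blood-borne cells that came with them. The median signal per array was 119.3 to 169.9, and the number of arrays limits the precision. Signals of 11 oocyte genes summed to 495 and 482 on the primordial-labelled arrays, 20064 and 21821 at the middle stage and 907 and 888 at the last stage, although a primordial follicle holds an oocyte. Arrays of 1 stage correlated at 0.964 to 0.972 over all probe sets (Pearson's r of log2 values, a description of the arrays), and arrays of different stages at 0.862 to 0.935.

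IL-1 alpha and IL-1 beta are inflammatory cytokines made in large amounts by activated macrophages. Both bind the receptor IL1R1, which passes the signal through the adaptor MYD88 and the IRAK kinases to the transcription factor NF-kB, and NF-kB in turn raises chemokine, prostaglandin and adhesion genes. IL-18 is a related cytokine that many epithelial and myeloid cells hold as an inactive precursor, and it induces interferon gamma in lymphocytes. Caspase-1 cuts the precursors of IL-1 beta and IL-18, and the secreted protein IL-18BP binds mature IL-18 and blocks it. In the ovary IL-1 is best known for its part in the inflammation-like events around ovulation.

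IL-1 transcripts and the IL-18 inhibitor were bright on the primordial-labelled arrays and dim on the others, whereas IL-18 itself differed little. The stage differences of these 4 genes were known when the genes were chosen, so they are described without a test. Differences are on the log2(signal + 16) scale, ± the fit's standard error (SE, 2 arrays in each stage), a scale that understates the change of dim genes. Ratios are of mean signals as deposited. In these bulk samples fewer cells of a type and less RNA per cell cannot be told apart.

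**Figure D1:**
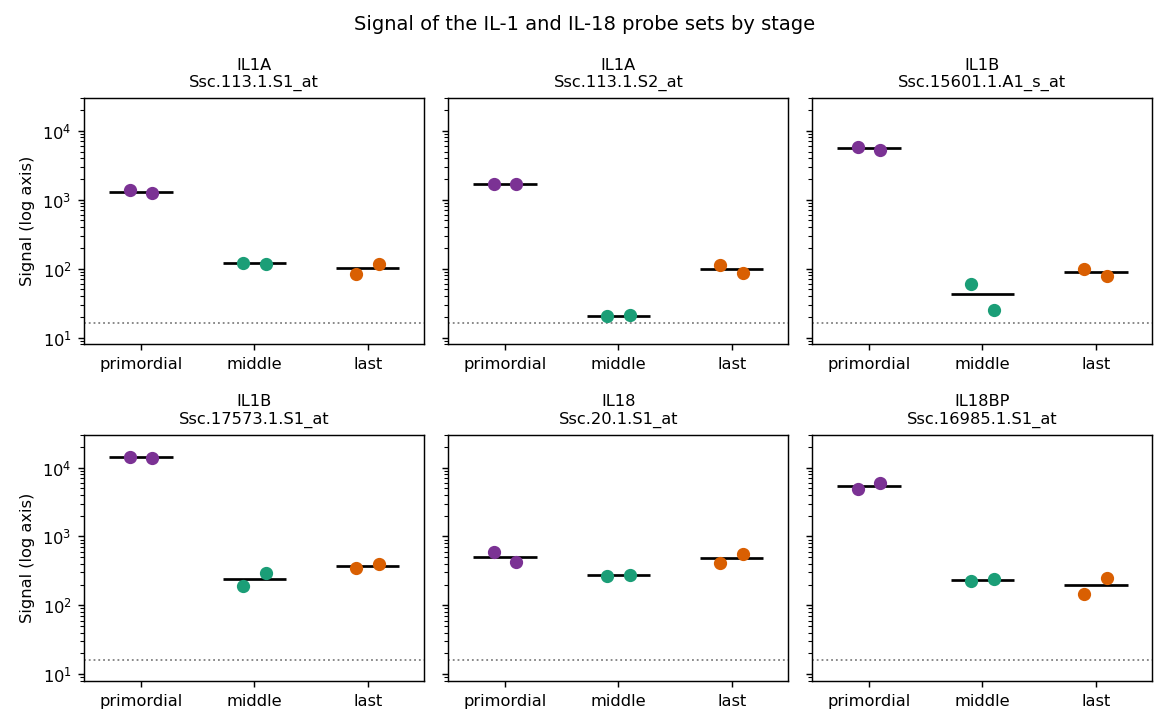
Signal of each IL-1 and IL-18 probe set (log axis, arbitrary units of the array software) on the 2 arrays of each stage, as points, with the stage mean as a bar and the pseudocount of 16 as a dotted line. IL1A, IL1B and IL18BP lie far above the other stages on the primordial-labelled arrays, and IL18 stays between 267 and 600 on all 6 arrays.

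IL1B encodes IL-1 beta, the main secreted form of IL-1. It is Entrez gene 397122. Its brighter probe set gave 14188 and 13875 on the primordial-labelled arrays, 193 and 295 at the middle stage and 343 and 395 at the last stage. No stage overlapped another, and 99.2% of the probe sets on each array labelled primordial were dimmer than this one. The mean was 243.9 ± 71.6 at the middle stage and 14032 ± 221 on the primordial-labelled arrays (SD, n = 2 each), 57.5 times dimmer at the middle stage, with a difference of -5.78 ± 0.23.

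From the middle to the last stage the IL1B level moved little by comparison. The last arrays averaged 368.8 ± 36.9 (SD, n = 2) against 243.9 ± 71.6 on the middle arrays, a difference of 0.59 ± 0.23 that was 0.31 without middle replicate 1 and 0.88 without middle replicate 2. Last minus primordial was -5.19 ± 0.23, a ratio of 38.1 in mean signal.

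The dimmer IL1B probe set, whose name ends in A1_s_at, had the same order of stages. It read 5897 and 5252 on the primordial-labelled arrays, 59.2 and 25.2 at the middle stage and 100.2 and 78.6 at the last stage, again with no overlap between stages. The middle values lay at the 30.1 and 17.3 percentiles of their arrays, close to the floor, so the ratio of 132.1 between the arrays labelled primordial and the middle arrays rests on a dim signal. That suffix marks, in the manufacturer's scheme, probes that can match more than 1 transcript. RefSeq lists a further porcine IL-1 beta gene, IL1B2, outside the placed chromosomes of Sscrofa11.1, and how far these probe sets also detect it was not tested.

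IL1A (Entrez gene 397094) encodes IL-1 alpha, which is active in its precursor form and is released mostly from damaged cells. The probe set whose name ends in S2_at gave 1703 and 1665 on the primordial-labelled arrays, 20.2 and 21.3 at the middle stage and 112.2 and 87.6 at the last stage. The other, ending in S1_at, gave 1362 and 1263, then 119.3 and 118.3, then 83.7 and 117.5 in the same order of stages. Both put the arrays labelled primordial far above the rest, and they differed over what came after.

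For the S2_at probe set the last arrays exceeded the middle arrays by 1.65 ± 0.26, whereas for the S1_at probe set the difference was -0.22 ± 0.24. The lower of these middle values, near 20, fell at the 15.2 and 15.5 percentiles of their arrays. With a pseudocount of 1 the 1.65 became 2.20, and with 64 it became 0.95. Middle minus primordial was -5.53 ± 0.26 for S2_at and -3.30 ± 0.24 for S1_at, so the size of the IL1A difference depends on the probe set. For last against primordial the probe sets gave -3.88 ± 0.26 and -3.52 ± 0.24.

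IL18 had the flattest profile of the 4 genes. The IL18 probe set (Entrez gene 397057) read 599.5 and 419.5 on the primordial-labelled arrays, 267 and 280 at the middle stage and 418.3 and 551.8 at the last stage. The middle arrays were the lowest, and the ranges of the last arrays and the arrays labelled primordial overlapped. Middle arrays averaged 273.5 ± 9.2 and arrays labelled primordial 509.5 ± 127 (SD, n = 2 each), a difference of -0.84 ± 0.25, or 1.86 times dimmer. Last arrays were above middle arrays by 0.78 ± 0.25, and the difference of last from primordial, -0.06 ± 0.25, was smaller than its error and changed sign without primordial replicate 1, to 0.19, and without last replicate 1, to 0.13.

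IL18BP, the secreted inhibitor of IL-18, had another order of stages than its ligand. The IL18BP probe set (Entrez gene 100525765) gave 4882 and 5865 on the primordial-labelled arrays, 223.6 and 244.5 at the middle stage and 146 and 251.3 at the last stage. Middle and last arrays overlapped, and both lay far below the arrays labelled primordial. The difference was -4.42 ± 0.26 for middle against primordial, a ratio of 23 in mean signal, and -4.69 ± 0.26 for last against primordial, a ratio of 27.1. Last minus middle was -0.26 ± 0.26, and its sign turned without last replicate 1, to 0.10.

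Middle and primordial-labelled arrays did not overlap for 6 of the 6 probe sets, and for 76.7% of all 14399 probe sets tested. Last and middle arrays did not overlap for 5 of 6 and for 60.2% of all, and last and primordial-labelled arrays for 5 of 6 and for 69% of all. By the stricter limma test 47.4%, 17.2% and 33.2% of all probe sets were called in these 3 comparisons. The median difference of the 6 probe sets was -4.98 in middle minus primordial, beside 0.22 over all probe sets tested. It was 0.68 in last minus middle, beside -0.07, and -4.29 in last minus primordial, beside 0.14. In last minus primordial, the IL1B probe sets ranked 3 and 5 from the lowest of all probe sets tested, IL18BP 9, IL1A 27 and 37, and IL18 5630. The genes were chosen on these signals, so the ranks and medians describe that choice and are no evidence of their own. The 3 comparisons also share arrays and are not separate evidence.

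Over the 6 arrays, Pearson's r of log2 values was 0.976 between IL1A and IL1B, 0.985 between IL1B and IL18BP and 0.932 between IL1A and IL18BP, taking the brightest probe set of each. For IL18 it was 0.687 with IL1A, 0.576 with IL1B and 0.474 with IL18BP. The 6 points are 3 pairs of arrays of 1 stage, so these coefficients only describe the arrays.

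The genes most like each cytokine were found by the distance between profiles of log2(signal + 16) over the 6 arrays, each centred on its own mean, among 5428 other genes. IL1A lay nearest to SPP1 (osteopontin), ARG1 (arginase), PLEK (pleckstrin), AREG (amphiregulin) and TCN1 (a vitamin B12 binding protein), at distances of 0.757 to 1.26. Nearest to IL1B were GPNMB, ACP5, SPP1, AMBN and AMELX, at 1.26 to 1.55. ACP5 is the tartrate-resistant acid phosphatase of osteoclasts and macrophages, and AMBN and AMELX are annotated as enamel matrix genes.

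For IL18BP the nearest genes were ACP5, FOSL1, LGALS3 (galectin-3), CXCL14 and HMGA1, at 0.631 to 1.21. ACP5 read 3965 and 3849 on the primordial-labelled arrays, 164.5 and 129.3 at the middle stage and 137.2 and 146.9 at the last stage. It was therefore the gene closest to IL18BP and the second closest to IL1B. IL18 lay nearest to ARAP3, SFT2D1, GBA2, DPH3 and TMBIM1, at 0.248 to 0.321. Of the 25 nearest genes of each, IL1A and IL1B shared 18, IL1B and IL18BP 16 and IL1A and IL18BP 12, and IL18 shared 0 with any of the other 3.

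IL1A and IL1B are next to each other in the order of protein-coding genes of Sscrofa11.1 (RefSeq), and IL18 and IL18BP stand apart from them and from each other. All 4 genes matched RefSeq by gene identifier, with 0 symbols changed. Of 30 other genes within 5 places on either side, 17 had a probe set of their own. Only 1 of these 17, FOLR1, a folate receptor gene 5 places from IL18BP, had a mean signal on the primordial-labelled arrays more than 2 times that of each other stage. It read 1745 and 984.4 on the primordial-labelled arrays, 217.6 and 194.2 at the middle stage and 221.4 and 620.3 at the last stage, with no overlap between the primordial arrays and the others. FOLR1 was singled out after its values were seen. CHCHD5, the nearest measured neighbour of IL1A apart from IL1B, read 653.4 and 675.9, then 870.2 and 1263, then 1221 and 1114, and was lowest on the primordial-labelled arrays.

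The rest of the pathway was read from a list of 88 genes, made up of receptors, other ligands of the family, signalling, maturation, NF-kB and response genes. Of these, 45 had a probe set of their own and 30 passed the filter. The list was chosen with earlier results of these data known, so the counts and medians below only describe it. LIF, IFNG and SELE passed the filter through the arrays of 1 stage alone. In middle minus primordial 18 of the 30 fell, 2 rose and 10 did not pass (limma, adjusted over all 14399 probe sets), with a median of -1.50, while over 5432 genes tested 22.5% were called lower and 22.9% higher, with a median of 0.06. The 2 called higher were TXNIP and MAP3K7, but the MAP3K7 probe sets disagree. With the mean of a gene's probe sets 18 fell and 1 rose, and with no filter 22 of 45 fell and 2 rose. In last minus middle 10 rose, 0 fell and 20 did not pass, with a median of 0.42 beside 0.02 over all genes, of which 8.8% were called higher and 7.23% lower. At an unadjusted p under 0.05 the counts were 11 and 0. In last minus primordial 15 fell, 2 rose and 13 did not pass, with a median of -0.62 beside 0.06, and over all genes 15.8% were called lower and 17.2% higher. Genes with no probe set of their own, such as IL1R2, IL1RAP, IL18RAP, NLRP3, PYCARD and all 7 other ligands, were not analysed here.

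**Figure D2:**
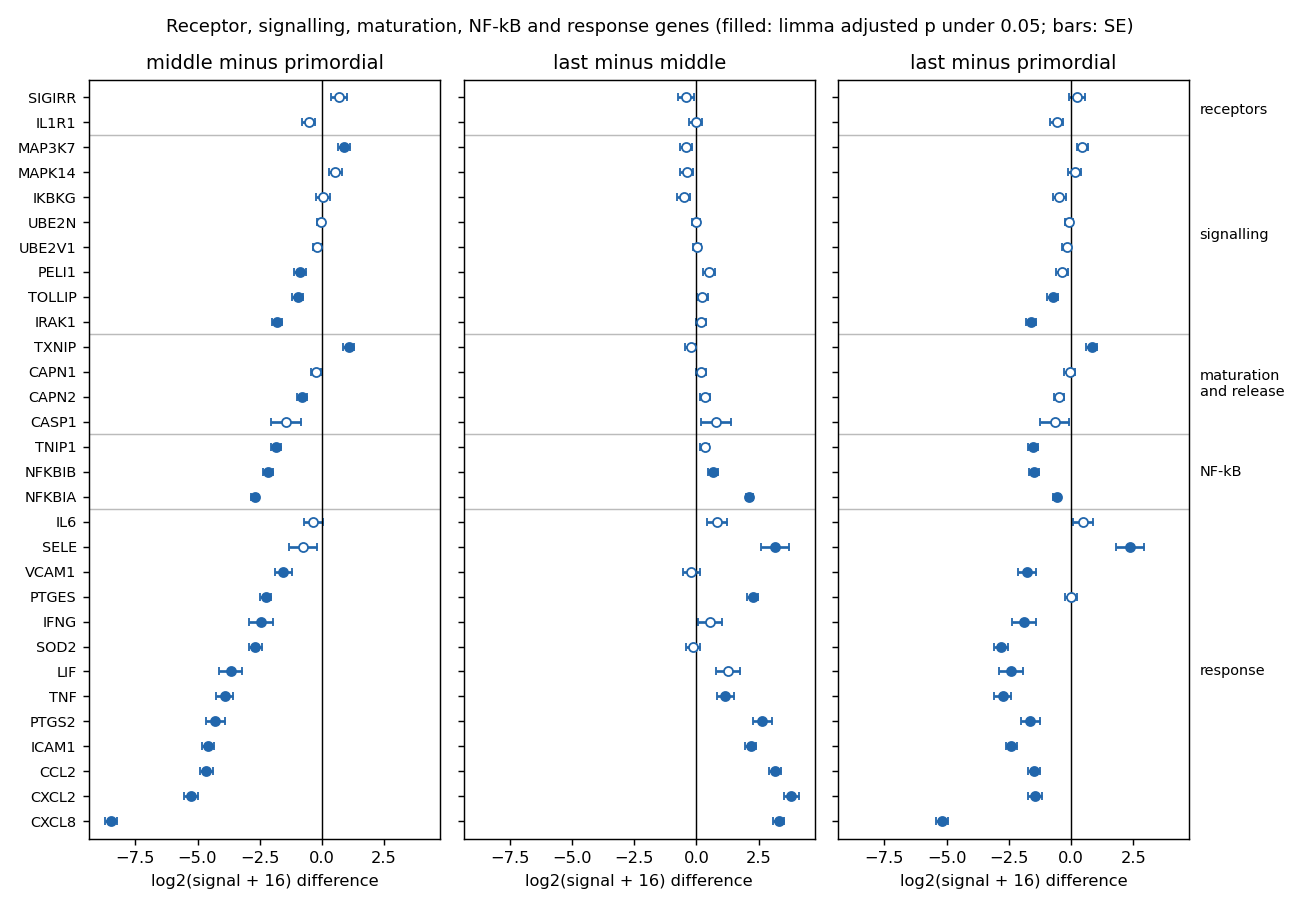
Difference in log2(signal + 16) ± SE for the 30 pathway genes tested, in order of role from receptors to response genes. Filled points passed the limma test at an adjusted p of 0.05. Most NF-kB and response genes lie left of 0 in middle minus primordial and right of it in last minus middle, and the receptors have open points in all 3 comparisons.

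Of the 2 receptor genes tested, 0 passed in each comparison (limma), also at an unadjusted p under 0.05. Over all genes 22.5%, 7.23% and 15.8% were called lower in middle minus primordial, last minus middle and last minus primordial, and 22.9%, 8.8% and 17.2% higher. With 2 genes tested, 0 calls cannot show that the receptors were unchanged. IL1R1, the signalling receptor for both IL-1 forms, read 412.4 and 287.8 on the primordial-labelled arrays, 202.3 and 267.5 at the middle stage and 204.8 and 249.8 at the last stage. Its middle minus primordial difference was -0.54 ± 0.27 (limma adjusted p = 0.132), and the test passed after median centring, at -0.78 (0.0411), and quantile normalization, at -0.84 (0.0306). Over all alternatives the IL1R1 adjusted p lay between 0.0306 and 0.532. SIGIRR, an inhibitory member of the receptor family, differed by 0.67 ± 0.32 (adjusted p = 0.115). IL18R1, the IL-18 receptor chain, did not pass the filter, with signals of 34.2 and 32.6, then 18.7 and 45.7, then 48.3 and 15.8 over the stages.

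Of 4 maturation and release genes tested, TXNIP rose and CAPN2 fell in middle minus primordial, 0 passed in last minus middle (limma, also at an unadjusted p under 0.05) and TXNIP rose in last minus primordial. Over all genes 22.9%, 8.8% and 17.2% were called higher in these comparisons, and 22.5%, 7.23% and 15.8% lower. With 4 genes these counts are near those shares and are not read as a result about maturation genes. CASP1, which cuts the precursors of IL-1 beta and IL-18, read 205.2 and 459.1 on the primordial-labelled arrays, 127.8 and 83.3 at the middle stage and 87.6 and 390.1 at the last stage. The replicates of CASP1 differed more than 4 times at the last stage, and the last arrays spanned nearly the whole range of the gene. Its middle minus primordial difference, -1.44 ± 0.59, did not pass (limma adjusted p = 0.0708). The test passed for CASP1 without last replicate 1 (0.0123), without last replicate 2 (0.0146), in the fit of 4 arrays (0.0128) and with the other scalings (0.0318 and 0.0432), in a range up to 0.352.

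CASP1 in last minus middle was 0.78 ± 0.59 (adjusted p = 0.398), became 1.76 (0.0378) without last replicate 1 and changed sign without last replicate 2, to -0.21. Last minus primordial was -0.66 ± 0.59 (0.421), became -1.65 (0.0329) without last replicate 2 and changed sign, to 0.33, without last replicate 1. GSDMD, whose cleaved protein forms the pores through which IL-1 beta leaves the cell, did not pass the filter and was not tested. It read 138.5 and 152.9 on the primordial-labelled arrays, 10 and 18.5 at the middle stage and 72.1 and 109.5 at the last stage, and was singled out after its values were seen. TXNIP, a thioredoxin-binding protein linked to the NLRP3 inflammasome, read 20091 and 17136 on the middle arrays, against 10828 and 7159 on those labelled primordial, and rose by 1.07 ± 0.22 (adjusted p = 0.0036).

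TXNIP was also higher in last than in primordial arrays by 0.84 ± 0.22 (limma adjusted p = 0.0181), a call lost without primordial replicate 2 (0.54, adjusted p = 0.123) and without last replicate 2 (0.59, 0.0859). CAPN2, a calpain protease, fell by 0.81 on the log2 scale in middle minus primordial (SE 0.19, adjusted p = 0.00791). Leaving out primordial replicate 1 (0.0653) or middle replicate 1 (0.0641) ended the CAPN2 call.

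Of 8 signalling genes tested, 3 fell in middle minus primordial, where 22.5% of all genes were called lower. A further 1, MAP3K7, was called higher at its brighter probe set and lower at the other. IRAK1, a kinase recruited to the IL-1 receptor, read 413.4 and 463.1 on the middle arrays, against 1463 and 1709 on the primordial-labelled arrays. The groups did not overlap, and the difference was -1.82 ± 0.20 (limma adjusted p = 0.000136). The last arrays read 499.5 and 508.8, and last minus primordial was -1.62 ± 0.20 (adjusted p = 0.000561). TOLLIP, which restrains IL-1 receptor signalling, differed by -0.97 ± 0.22 in middle minus primordial (adjusted p = 0.00595), which middle replicate 1 decided (-0.74, 0.0504 when left out).

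TOLLIP in last minus primordial was -0.73 ± 0.22 (limma adjusted p = 0.0313), a call that needed primordial replicate 1 (0.142 without it), primordial replicate 2 (0.102) and last replicate 1 (0.125). PELI1, an E3 ubiquitin ligase of the pathway, differed by -0.87 ± 0.24 in middle minus primordial (adjusted p = 0.0161), and did not pass when primordial replicate 1 (-0.68, 0.119) or middle replicate 2 (-0.62, 0.117) was left out. MAP3K7, the kinase TAK1, was called in opposite directions by its 2 probe sets, at 0.89 ± 0.24 for the brighter (adjusted p = 0.0127) and -1.10 for the dimmer (0.00605), so no direction can be given for this gene. The brighter did not pass when primordial replicate 1 (0.83, 0.0692) or middle replicate 1 (0.63, 0.101) was left out. The other 4 signalling genes, UBE2N, UBE2V1, IKBKG and MAPK14, did not pass in middle minus primordial, and in last minus middle 0 of 8 passed (limma) at the brightest probe set, also at an unadjusted p under 0.05, though a dimmer probe set of UBE2V1 was called lower (-0.99, adjusted p = 0.0266).

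All 3 NF-kB regulators tested fell in middle minus primordial, where 22.5% of all genes were called lower. NFKBIA, the inhibitor IkB-alpha and itself an NF-kB target, read 12377 and 11949 on the primordial-labelled arrays, 1938 and 1782 at the middle stage and 7596 and 8705 at the last stage, with no overlap between stages. It differed by -2.70 ± 0.15 in middle minus primordial (limma adjusted p = 4.98e-06) and rose by 2.12 ± 0.15 in last minus middle (3.55e-05). NFKBIB, a second inhibitor, differed by -2.18 ± 0.20 and TNIP1, a restraint on NF-kB activation, by -1.86 ± 0.19 in middle minus primordial (5.5e-05 and 9.96e-05).

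In last minus primordial, NFKBIB and TNIP1 differed by -1.50 ± 0.20 and -1.53 ± 0.19 (limma adjusted p = 0.000789 and 0.000605). NFKBIA, at -0.58 ± 0.15 (0.0167), lost its call without primordial replicate 1 (-0.55, 0.0965), primordial replicate 2 (-0.61, 0.0772) or last replicate 1 (-0.48, 0.079). The rise of NFKBIB in last minus middle, 0.67 ± 0.20 (0.0482), was lost under 10 of 14 alternatives, among them each that left out 1 array. Its adjusted p then ranged from 0.0736 without primordial replicate 1 to 0.209 without middle replicate 1. NFKB1 did not pass the filter.

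Response genes showed the largest differences of the pathway. Of 13 tested, 11 fell and 0 rose in middle minus primordial, with a median of -3.67, 8 rose and 0 fell in last minus middle, with a median of 2.18, and 10 fell and 1 rose in last minus primordial, with a median of -1.77. Over all genes 22.5% were called lower, 8.8% higher and 15.8% lower in these comparisons. The counts include LIF and IFNG, which passed the filter through the primordial-labelled arrays alone, and SELE, which passed through the last arrays alone. The list was also chosen with earlier results of these data known, so its counts and medians only describe it. IL6 was not called in any of them (-0.34, 0.83 and 0.49). PTGES was not called in last minus primordial (0.003 ± 0.225, limma adjusted p = 0.993). CXCL8, a chemokine for neutrophils, read 10765 and 9781 on the primordial-labelled arrays, 9.2 and 17.4 at the middle stage and 241.5 and 300.2 at the last stage. CXCL2, another neutrophil chemokine, gave 10899 and 10755, then 383.2 and 187.7, then 3600 and 4453. Both were highest on the primordial-labelled arrays and lowest on the middle arrays. In last minus middle CXCL2 rose by 3.82 ± 0.29 (limma adjusted p = 4.86e-05) and CXCL8 by 3.30 ± 0.24 (3.93e-05). CXCL8 was about as dim as the pseudocount on the middle arrays, and its last minus middle difference was 4.30 with a pseudocount of 1 and 2.11 with 64.

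CCL2, which attracts monocytes, and ICAM1, a leukocyte adhesion molecule, followed the same order of stages. In middle minus primordial they differed by -4.64 ± 0.26 and -4.58 ± 0.23, and in last minus middle they rose by 3.15 ± 0.26 and 2.18 ± 0.23, all with a limma adjusted p of 0.000327 or less. SOD2, a mitochondrial superoxide dismutase, read 8975 and 5475 on the primordial-labelled arrays, 1095 and 1079 at the middle stage and 781.1 and 1238 at the last stage, so its middle and last arrays overlapped as those of IL18BP did. Its differences were -2.67 ± 0.28 in middle minus primordial and -2.81 ± 0.28 in last minus primordial (adjusted p = 0.000101 and 0.000195).

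TNF, the other early macrophage cytokine, read 759.5 and 1195 on the primordial-labelled arrays, 33.8 and 68.3 at the middle stage and 122.4 and 134.6 at the last stage. It differed by -3.90 ± 0.34 in middle minus primordial and -2.75 ± 0.34 in last minus primordial (limma adjusted p = 3.92e-05 and 0.000519). Its rise of 1.16 ± 0.34 in last minus middle (0.0438) was lost under 9 of 14 alternatives. Each array but middle replicate 2 ended it when left out, with adjusted p-values of 0.0559 (primordial replicate 1), 0.06 (primordial replicate 2), 0.265 (middle replicate 1, at 0.78), 0.0891 (last replicate 1) and 0.117 (last replicate 2).

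LIF, a cytokine of the interleukin 6 family, fell by 3.67 on the log2 scale in middle minus primordial (SE 0.48). In last minus primordial it fell by 2.41 (SE 0.48), and by 2.10 without primordial replicate 1. The LIF means of 13.55 at the middle stage and 51.55 at the last stage lay under the filter's cutoff. Its signal on the primordial-labelled arrays thus carried LIF past the filter, so no p-value is given for it here. LIF read 3.3 and 23.8 on the middle arrays, around the pseudocount, and its middle minus primordial difference ranged from -5.03 to -2.39 over the alternatives. SELE is E-selectin of activated endothelium. It read 24.1 and 79.1 on the primordial-labelled arrays, 41.4 and 6.7 at the middle stage and 366.5 and 254.4 at the last stage, the only response gene tested that was called higher in last than in primordial arrays. That difference, 2.38 ± 0.56, was 1.76 without primordial replicate 1 and 2.13 without last replicate 1. The last minus middle difference of SELE was 3.16 ± 0.56. Its means of 51.6 on the primordial-labelled arrays and 24.05 at the middle stage lay under the filter's cutoff. The signal on the last arrays thus carried SELE past the filter, so no p-value is given for it here. Summed signals of 7 endothelial markers were 1658 and 1789 on the primordial-labelled arrays, 1212 and 1016 at the middle stage and 2796 and 3689 at the last stage, and their part in the SELE result was not tested.

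IFNG, the cytokine that IL-18 is known to induce, was singled out after its values were seen, so no p-value is given for it here. It read 46 and 19.8 on the middle arrays against 156.9 and 359.4 on the primordial-labelled arrays, a difference of -2.44 ± 0.48. The last arrays, at 44 and 64.3, gave a difference of -1.88 ± 0.48 from those labelled primordial. The IFNG means of 32.9 at the middle stage and 54.15 at the last stage lay under the filter's cutoff. Its signal on the primordial-labelled arrays thus carried it past the filter. The IFNG differences were not recomputed under the alternatives. Summed signals of 8 lymphocyte markers were 1293 and 2065 on the primordial-labelled arrays, 378 and 324 at the middle stage and 264 and 890 at the last stage, and their part in the IFNG difference was not tested.

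The summed signal of macrophage markers, like IL1A, IL1B and IL18BP, was highest on the primordial-labelled arrays. Of 20 listed, 15 had a probe set, and their summed signal was 31384 and 25235 on the primordial-labelled arrays, 4041 and 3002 at the middle stage and 3684 and 10795 at the last stage. Of 12 that passed the filter, 11 fell in middle minus primordial and 0 rose (limma), with a median of -3.07 and differences of -5.17 for CD53 to -0.25 for MRC1. Over all genes 22.5% were called lower there. CD14, PTPRC and ITGAM stayed under 80 on every array. ITGAM averaged 59.85 at the middle stage against 15.9 on the primordial-labelled arrays, and PTPRC 48.8 at the last stage against 48.7. For MRC1, C1QA and C1QC the last and primordial-labelled arrays overlapped. What part the macrophage content had in the cytokine differences was not tested.

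**Figure D3:**
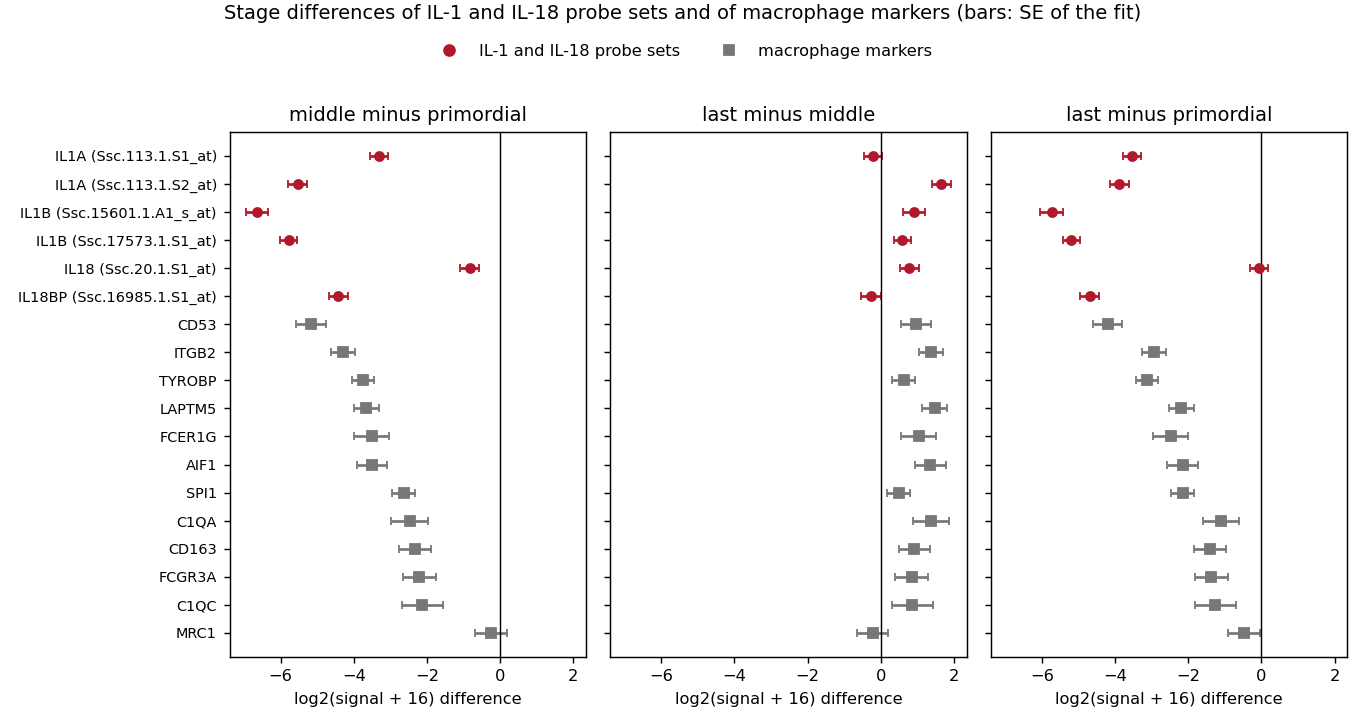
Difference in log2(signal + 16) ± SE for the 6 IL-1 and IL-18 probe sets (red circles) and the 12 macrophage markers that passed the filter (grey squares). In last minus middle the markers have a median of 0.94 while IL18BP and the S1_at probe set of IL1A lie left of 0, and in last minus primordial IL18 lies near 0 and the markers have a median of -2.15.

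In last minus primordial 9 of the 12 macrophage markers fell, where 15.8% of all genes were called lower. Their median was -2.15, and the lowest, CD53, was at -4.20. In last minus middle 2 of the 12 rose and 0 fell (limma, and 5 and 0 at an unadjusted p under 0.05), with a median of 0.94 and a range of -0.22 to 1.48. Over all genes 8.8% were called higher in last minus middle, so 2 of 12 is not read as a result about the markers. Over the same step IL18BP differed by -0.26, IL1A by -0.22 and 1.65 at its probe sets, IL1B by 0.59 and 0.91 and IL18 by 0.78. The last arrays differed in these markers, with a sum of 3684 for replicate 1 and 10795 for replicate 2. Across the same arrays IL1B read 343 and 395, IL18 418.3 and 551.8, IL18BP 146 and 251.3, and CASP1 87.6 and 390.1.

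Neutrophils also carry IL-1 beta, and their markers were dim at every stage. Of 11 neutrophil markers listed, 6 had a probe set and 0 passed the filter, with summed signals of 195 and 253 on the primordial-labelled arrays, 175 and 242 at the middle stage and 158 and 198 at the last stage. S100A8 and S100A9, the most abundant proteins of neutrophil cytoplasm, read at most 62.1 and 67.2.

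**Figure D4:**
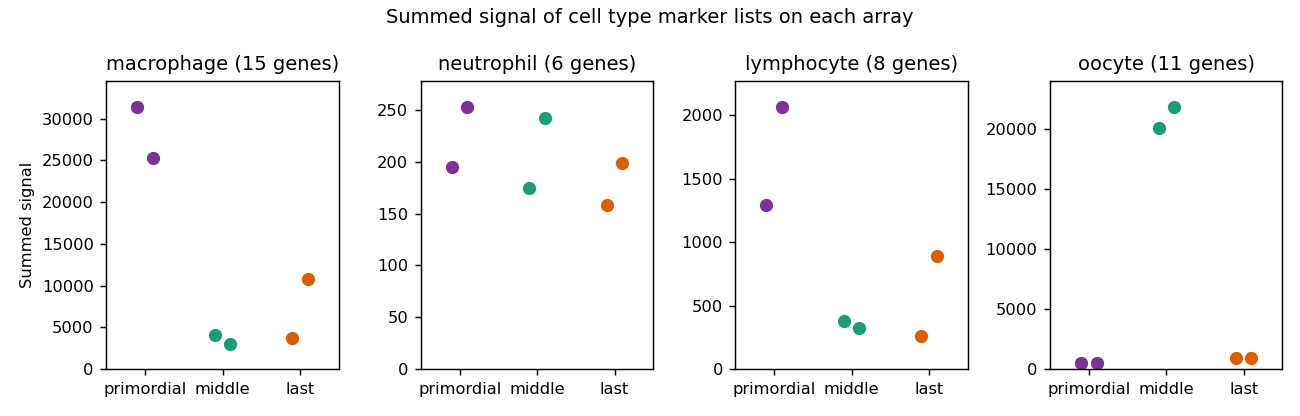
Summed signal of the macrophage, neutrophil, lymphocyte and oocyte marker genes on the 2 arrays of each stage, each axis from 0. The macrophage sum is highest on the primordial-labelled arrays and spreads at the last stage, the neutrophil sum stays between 158 and 253, and the oocyte sum is highest on the middle arrays.

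Among 13 granulosa genes the summed signal was 60709 and 77262 on the primordial-labelled arrays, 33984 and 38385 at the middle stage and 87808 and 87930 at the last stage. GJA1, with means of 20601, 18986 and 19964 over the stages, made a large part of the middle sums. Of 10 granulosa genes tested in middle minus primordial, 5 fell, 1 (AMH) rose and 4 did not pass (limma). Over all genes 22.5% were called lower and 22.9% higher there. The granulosa sum thus also covers opposite directions. Theca genes (5) summed to 5365 and 4828, then 2474 and 4189, then 16426 and 15459 over the stages. CYP11A1 alone averaged 4492 on the primordial-labelled arrays and 673.2 at the middle stage. It was the 1 theca gene that fell in middle minus primordial, while 3 rose and 1 did not pass (limma), beside 22.5% lower and 22.9% higher over all genes. The theca sum thus hides opposite directions. Stroma genes (7 with a probe set) summed to 1055 and 865 on the primordial-labelled arrays, 22394 and 14210 at the middle stage and 20904 and 17817 at the last stage, and were thus lowest where IL1A, IL1B and IL18BP were highest. The part of these other cell types in the cytokine differences was not tested. The 3′ over 5′ excess of the actin control, a sign of RNA integrity and labelling, was 3.56 and 3.21 (log2) on the primordial-labelled arrays, 4.98 and 4.21 at the middle stage and 3.90 and 3.57 at the last stage. It was greatest at the middle stage, where IL18, both IL1B probe sets and the S2_at probe set of IL1A had their lowest means. IL18BP and the S1_at probe set of IL1A had theirs at the last stage. The excess of the GAPDH control was 3.43 and 2.69, then 3.29 and 2.79, then 1.90 and 1.86, and was lowest at the last stage. The part of RNA quality in the cytokine differences was not tested.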

How the data were processed

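Per the labels' protocols, biotinylated cRNA was made from 6 µg of Trizol-extracted total RNA per array. Per the submitters' processing notes GCOS produced the values (version: not given in the sources used here). As deposited, the intensity values are linear, from 0.1 to 47773, and the authors had scaled each array, since the mean without the lowest and highest 2% was 500.1 on each. The table holds 24123 probe sets, 124 of them controls. Of the other 23999, 10069 have 1 gene symbol, 198 several and 13732 none, and genes are named only from the first kind.

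Values were analysed as log2(signal + 16). Probe sets with a mean under 91.3, the dimmest 40%, were left out, which kept 14399, and no detection calls were used. limma 3.58.1 in R 4.3.3 (lmFit, eBayes with an intensity trend) was fitted to all 6 arrays, with 3 residual and 6.33 prior degrees of freedom. Tests were two-sided and adjusted by Benjamini-Hochberg over all probe sets left, at 0.05. A listed gene is represented by its brightest probe set. Other scalings, pseudocounts, filters, a replicate block and left-out arrays were tried.

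The named genes were all probe sets of the 5 genes, their 5 nearest profiles, up to 4 called genes with the largest difference per list and comparison, 5 receptor genes and CASP1. Members, lists and rules were chosen with earlier results of these data known. The fit was tested on simulated data. Figures used Python 3.11.15, pandas 2.3.3, numpy 2.4.6 and matplotlib 3.10.9.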

Additional observations from a re-analysis of the deposited data

How the results depend on the processing

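The values were recomputed after median centring and quantile normalization, with pseudocounts of 1 and 64, no filter, a 60% filter, a replicate block, the 4 arrays of the 2 stages only and each array left out, and the pathway counts also with the mean of a gene's probe sets. Pathway genes called stayed within 17 to 24 (20 as reported) in middle minus primordial, 7 to 10 (10) in last minus middle and 12 to 18 (17) in last minus primordial. With the replicate block they were 20, 9 and 17. Probe sets called over the whole table, leaving out 1 array, ranged from 4356 to 7189 in middle minus primordial, 727 to 2172 in last minus middle and 2730 to 4297 in last minus primordial, against 6821, 2481 and 4786 as reported. The counts that moved by over 1.5 times were 4356 without middle replicate 1 in middle minus primordial, 727 and 1440 without middle replicates 1 and 2 in last minus middle, and 2900 and 2730 without primordial replicates 1 and 2 in last minus primordial, where fewer arrays were fitted. Centring moved the share of calls that were higher to 47.5% in middle minus primordial, against 62.7%, to 54.8% in last minus middle, against 42.3%, and to 47.4% in last minus primordial, against 59.7%. Same-numbered arrays did not deviate together (r of the replicate differences 0.0593, 0.0318 and -0.0476 between stages). With 2 arrays a stage this cannot show whether same-numbered samples share an animal or a batch. The sign of the IL1A, IL1B and IL18BP differences from the arrays labelled primordial held under all 14 alternatives, and in middle minus primordial they ranged from -6.28 to -4.37 (IL1A, S2_at), -3.54 to -2.91 (IL1A, S1_at), -7.13 to -5.75 (IL1B, dimmer probe set), -6.07 to -5.50 (IL1B, brighter) and -4.67 to -4.18 (IL18BP). IL18 ranged from -1.10 to -0.59 there. Of 786 recomputed values of named pathway genes, 739 kept their side of the threshold, 37 were no longer past it, 10 came past it and 0 changed sign where either value passed. Signals near 20, as of IL1A on the middle arrays, limit the precision of the largest ratios.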
